A study of Mus musculus with 6 samples.

Results

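The genes described are 10 members of the metalloprotease families and their inhibitors, chosen by name from the 24539 genes of the deposited table. They are the matrix metalloproteases Mmp2, Mmp3, Mmp12, Mmp14 and Mmp19, the proteases Adam8 and Adamts1, and the tissue inhibitors of metalloproteases Timp1, Timp2 and Timp3. Their RNA was measured in epididymal white adipose tissue, the fat pad beside the epididymis of male mice, in the genotypes Jmjd8-KO (3 mice) and wild type (WT, 3 mice). The strain was C57BL/6 in both, on a high-fat diet (HFD) and with no further treatment. The sources used here do not give the knockout allele, any limit of it to a cell type, the age of the mice or how long the diet lasted.

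Matrix metalloproteases and ADAMTS proteases are zinc enzymes that cut collagens, elastin, laminins and proteoglycans outside the cell, and ADAM proteases sit in the membrane, where several of them release growth factors and cytokines from the cell surface. Most are made as inactive proenzymes, and the TIMPs block the active site once it is exposed. In fat that expands on a rich diet, this system remodels the matrix around enlarging adipocytes, and macrophages, stromal progenitors, endothelial cells and adipocytes each contribute part of it.

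All 10 members passed the filter on low counts and were tested with 14322 genes in all. Mmp3 and Adam8 fell in Jmjd8-KO fat, Timp3 rose, and the other 7 did not pass at an adjusted p under 0.05 (edgeR's quasi-likelihood test with Benjamini-Hochberg adjustment). Over all tested genes 2.12% passed, 1.33% lower and 0.789% higher in Jmjd8-KO. The split of 191 lower and 113 higher genes was 288 and 84 with library size scaling and 536 and 503 with DESeq2. The 3 Jmjd8-KO values lay below the 3 WT values for 8 members and above them for 1, where the share of all tested genes was 15.5% and 14% (29.5% in either direction). The median log2 fold change of the members was -0.38 and that of all tested genes -0.0056, and 9 of 10 members had an unadjusted p under 0.05 against 19.1% of all tested genes. The members were picked with earlier results of these data known, so these counts describe them and do not set them apart from other genes.

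Total counts were 17598696 to 20598473 per library. Jmjd8 itself was at 46.5 ± 9.81 CPM (counts scaled to library size with TMM factors) in Jmjd8-KO and 113 ± 2.34 CPM in WT (SD, n = 3 each). The difference was -1.28 on the log2 scale (SE 0.144, adjusted p = 0.0193). It was -1.47 without Jmjd8-KO replicate 2, against -1.18 without Jmjd8-KO replicate 1 and -1.22 without Jmjd8-KO replicate 3. Adipocyte markers summed to 20263 to 23490 CPM in Jmjd8-KO and 18566 to 19679 CPM in WT, led by Fabp4, Lep and Cidec. Jmjd8-KO replicate 2 differed from the other Jmjd8-KO libraries over many genes, with a chi-square per degree of freedom of 46.0 and 42.9 against 2.97 between those 2. WT replicate 1 carried RNA of nervous tissue, with 1078 CPM summed over 8 markers of neurons and glia against 66.4 to 88.2 CPM in the other 5 libraries. Markers of testis and epididymis summed to 0.101 to 0.407 CPM in Jmjd8-KO and 0.907 to 1.01 CPM in WT, and Prm2, Tnp1, Lcn5 and Eppin were at 0. Of these 8 markers 1 was tested, and it fell (log2 fold change -6.63), at levels near the floor.

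Mmp3 and Mmp12 lie in 1 cluster of 10 MMP genes on chromosome 9, and the promoters of the 3 members that passed are printed here with that of Mmp12, because their letters differ in a motif long known from MMP promoters. The windows run from 250 bases before to 50 bases after the annotated start and come from RefSeq on GRCm38.p6. RefSeq promoters matched 8 of the 10 members. Capitals mark TGANTCA, the element bound by AP-1 factors of the Fos and Jun families, searched on both strands.
Mmp3, chr9:7445572-7445871, plus strand: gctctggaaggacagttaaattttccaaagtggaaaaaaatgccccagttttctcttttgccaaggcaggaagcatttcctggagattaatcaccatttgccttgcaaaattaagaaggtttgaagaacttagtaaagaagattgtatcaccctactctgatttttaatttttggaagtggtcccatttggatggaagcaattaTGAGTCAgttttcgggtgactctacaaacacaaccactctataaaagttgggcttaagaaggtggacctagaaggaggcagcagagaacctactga
Mmp12, chr9:7347124-7347423, plus strand: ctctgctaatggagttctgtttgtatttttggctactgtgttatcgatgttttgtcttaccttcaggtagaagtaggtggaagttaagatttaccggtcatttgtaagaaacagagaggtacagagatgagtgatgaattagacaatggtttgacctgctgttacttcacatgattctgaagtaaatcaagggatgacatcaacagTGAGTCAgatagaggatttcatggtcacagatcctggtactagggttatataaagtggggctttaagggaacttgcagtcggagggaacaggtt
Adam8, chr7:139992513-139992812, minus strand: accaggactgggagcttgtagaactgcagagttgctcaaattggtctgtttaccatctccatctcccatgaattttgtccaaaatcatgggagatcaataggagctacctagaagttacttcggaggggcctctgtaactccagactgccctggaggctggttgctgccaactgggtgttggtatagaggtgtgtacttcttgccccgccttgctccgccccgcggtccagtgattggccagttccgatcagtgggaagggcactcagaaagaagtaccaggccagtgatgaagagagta
Timp3, chr10:86300162-86300461, plus strand: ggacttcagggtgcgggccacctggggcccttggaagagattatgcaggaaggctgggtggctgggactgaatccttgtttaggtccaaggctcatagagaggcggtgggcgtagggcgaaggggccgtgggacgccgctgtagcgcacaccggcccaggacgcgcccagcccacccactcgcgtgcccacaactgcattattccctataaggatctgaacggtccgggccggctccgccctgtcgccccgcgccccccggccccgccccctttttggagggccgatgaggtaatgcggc
The Mmp3 window holds 1 match that begins 46 bases before the start, and the Mmp12 window 1 that begins 44 bases before it, both spelled TGAGTCA. Mmp12 has another RefSeq start upstream, whose window holds no match. No match was found in the windows of Adam8 and Timp3, and among the 8 matched members Mmp3 and Mmp12 were the 2 with a match. The motif was present in 7.81% of 32851 promoter windows of the same length, and in at least 1 window of 8 of the 10 genes of the MMP cluster. GC content was 40% in the Mmp3 window and 40.7% in that of Mmp12, against 52.3% for Adam8 and 67% for Timp3. A match is a run of letters and was not tested as a site.

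**Figure D1:**
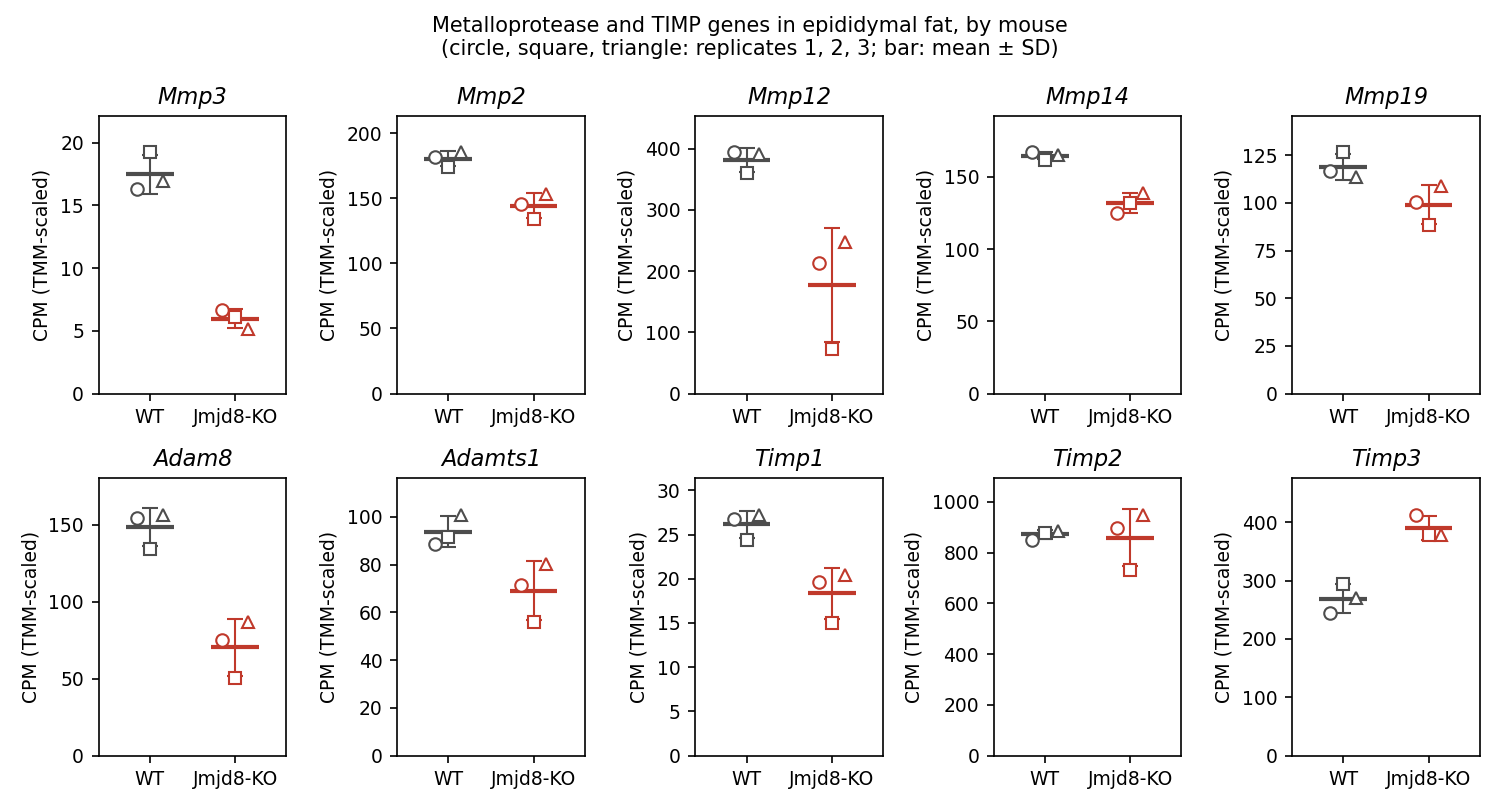
CPM (TMM-scaled, linear axis from 0) of the 10 members in each mouse, with WT in grey and Jmjd8-KO in red; circles, squares and triangles are replicates 1, 2 and 3, and bars give the mean ± SD of 3 mice. Mmp3 and Adam8 are lower and Timp3 is higher in Jmjd8-KO without overlap, Timp2 overlaps, and Jmjd8-KO replicate 2 is the lowest of its group for Mmp12 at 72.2 CPM.

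Mmp3, stromelysin-1, which cuts proteoglycans and fibronectin and can activate other MMPs, had the smallest p of the members. The gene spans 7445822 to 7455975 of chromosome 9, plus strand (GENCODE M21, GRCm38). Its levels were 6.64, 6.09 and 5.17 CPM in Jmjd8-KO replicates 1, 2 and 3 and 16.3, 19.2 and 16.9 CPM in WT replicates 1, 2 and 3. The groups were far apart and the mice within each close together, Jmjd8-KO replicate 2 included. Mmp3 fell 2.93-fold (log2 fold change -1.55, SE 0.137, adjusted p = 0.0125), from 17.5 ± 1.54 to 5.97 ± 0.743 CPM, on 89 to 379 counts per library. It was also called without Jmjd8-KO replicate 2 (adjusted p = 0.00514) and without WT replicate 1 (adjusted p = 0.0391, with 17 of 14415 genes passing). The fit without Jmjd8-KO replicate 2, given for the members below too, passed 1351 of 14468 genes, against 304 of 14322 with all mice. Calls gained in it are thus gained by many genes. With any other mouse left out Mmp3 was not called (adjusted p from 0.0637 to 0.118), in fits where 0 to 4 of all genes passed.

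Mmp12, the macrophage metalloelastase, lies in the same cluster from 7344381 to 7369499 and had the highest level per length of the proteases in WT. Its levels were 213, 72.2 and 247 CPM in Jmjd8-KO and 394, 359.7 and 391 CPM in WT. Every Jmjd8-KO mouse was below every WT mouse, and Jmjd8-KO replicate 2 stood far below the other 2. With a log2 fold change of -1.10 and an SE of 0.397 the gene did not pass (adjusted p = 0.200). Without Jmjd8-KO replicate 2 the log2 fold change was smaller, -0.73, and the gene was called (SE 0.0787, adjusted p = 0.00754). Its last exons share 157 bases with Mmp1b on the other strand, which had 0 to 2 counts in any library.

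The rest of the MMP cluster was low. It spans 427.1 kb, and 4 of its 10 genes passed the filter on low counts. Besides Mmp3 and Mmp12 these were Mmp13, collagenase-3, with a log2 fold change of -0.26 (SE 0.306), and Mmp27, with -0.97 (SE 0.494), neither of which passed (adjusted p = 0.663 and 0.330). Mmp8, the collagenase of neutrophils, stayed between 0.101 and 0.264 CPM, and 5 of the cluster's genes averaged at most 0.1 CPM.

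Mmp14 and Mmp2 act in sequence: Mmp14, the membrane-bound MT1-MMP, cuts fibrillar collagen and activates the proenzyme of Mmp2, gelatinase A, in a complex that includes Timp2. Mmp14 was at 125.1, 132 and 139 CPM in Jmjd8-KO and 167, 162 and 165 CPM in WT. Mmp2 was at 146, 134 and 153 CPM in Jmjd8-KO and 182, 174 and 185 CPM in WT. Neither gene's groups overlapped, and the differences were small. Their log2 fold changes were -0.32 (SE 0.0694, adjusted p = 0.0697) for Mmp14 and -0.32 (SE 0.0768, adjusted p = 0.0870) for Mmp2. Both were called without Jmjd8-KO replicate 2 (adjusted p = 0.0224 and 0.0244), with log2 fold changes of -0.32 and -0.27. In that fit 1351 of 14468 genes passed.

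Timp2, the partner of both and a general MMP inhibitor, was the member with the highest level. It was at 896, 734 and 950.4 CPM in Jmjd8-KO and 850.4, 878 and 887 CPM in WT. The Jmjd8-KO values reached to both sides of the WT values. Its difference was -0.02 on the log2 scale (SE 0.107, adjusted p = 0.928), with a positive sign without Jmjd8-KO replicate 2 (0.083). The ratio of Mmp14 to Timp2 CPM was 0.140 to 0.180 in Jmjd8-KO and 0.184 to 0.196 in WT. For Mmp2 the ratio was 0.161 to 0.182 in Jmjd8-KO and 0.198 to 0.214 in WT. In both pairs the ratio was highest in Jmjd8-KO replicate 2 among the Jmjd8-KO mice.

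Mmp19, which cuts basement membrane proteins, ranged from 88.3 to 109 CPM in Jmjd8-KO and from 113 to 126 CPM in WT. It did not pass (log2 fold change -0.26, SE 0.0963, adjusted p = 0.207). Its exons share 789 bases with Tmem198b on the other strand, which had 713 to 920 counts per library. The sources used here do not give the strand setting of the counts, so reads of the overlap cannot be assigned to a gene.

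Adam8, a membrane protease of myeloid cells that releases adhesion molecules and receptors from their surface, fell. The gene spans 139978932 to 139992562 of chromosome 7, minus strand. Its levels were 75.0, 50.3 and 86.6 CPM in Jmjd8-KO and 154, 134 and 157 CPM in WT. The highest Jmjd8-KO mouse was well below the lowest WT mouse. Adam8 fell 2.10-fold (log2 fold change -1.07, SE 0.191, adjusted p = 0.0428), from 148 ± 12.2 to 70.6 ± 18.5 CPM. It was called without Jmjd8-KO replicate 2 (-0.88, adjusted p = 0.00702) and with no other single mouse left out (adjusted p from 0.0789 to 0.194). The call was also lost when only genes with a mean of at least 1 CPM were tested (adjusted p = 0.0575).

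Adamts1, a secreted protease that cuts the proteoglycans versican and aggrecan, ranged from 55.8 to 80.1 CPM in Jmjd8-KO and from 88.8 to 101 CPM in WT. It did not pass (log2 fold change -0.44, SE 0.136, adjusted p = 0.149). Versican (Vcan) was at 28.6 to 61.0 CPM in Jmjd8-KO and 43.8 to 48.7 CPM in WT (log2 fold change 0.04, adjusted p = 0.939; picked after seeing its value).

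Among the inhibitors, Timp3 rose. Timp3 binds to the matrix and, unlike the other TIMPs, also inhibits the sheddase Adam17 and several ADAMTS proteases. Its levels were 413, 379 and 377 CPM in Jmjd8-KO and 244, 294 and 269.6 CPM in WT. The groups were apart, and Jmjd8-KO replicate 2 stood with its group. Timp3 rose 1.45-fold (log2 fold change 0.53, SE 0.0911, adjusted p = 0.0413), from 269 ± 24.7 to 389.8 ± 20.3 CPM. It was called without Jmjd8-KO replicate 2 (0.55, adjusted p = 0.0175) and with no other single mouse left out (adjusted p from 0.109 to 0.195, 0.125 without WT replicate 1).

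Timp1, a secreted inhibitor of many MMPs, ranged from 15.04 to 20.4 CPM in Jmjd8-KO and from 24.4 to 27.3 CPM in WT. It did not pass (log2 fold change -0.51, SE 0.133, adjusted p = 0.106) and was called without Jmjd8-KO replicate 2 (-0.39, adjusted p = 0.0342). Timp4, an inhibitor abundant in fat and heart that is no member, was the gene of the list of other inhibitors that passed. Its levels were 192, 212 and 196 CPM in Jmjd8-KO and 114, 145 and 131 CPM in WT, and it rose (log2 fold change 0.62, SE 0.104, adjusted p = 0.0392). Like Timp3, it was called without Jmjd8-KO replicate 2 (adjusted p = 0.0215) and with no other mouse left out (from 0.104 to 0.186). Timp3 and Timp4 were thus higher, Timp1 lower and Timp2 overlapping in the Jmjd8-KO mice.

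Each of Timp1, Timp3 and Timp4 lies inside a synapsin gene on the opposite strand, which bears on the library that carried nervous tissue RNA. Timp1 lies within Syn1 with no shared exon bases, Timp4 within Syn2 with 90 shared bases and Timp3 within Syn3 with 1733. Syn1 had 1204 counts in WT replicate 1 and 36 to 116 in the other libraries, and Syn2 had 1124 against 153 to 186. Syn3 had 46 to 79 counts in any library, where Timp3 had 4951 to 7838. As for Mmp19, the strand setting is not given, so reads of the shared bases cannot be assigned to a gene. WT replicate 1 was the lowest of all 6 libraries for Timp3 and Timp4, and within the WT range for Timp1.

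**Figure D2:**
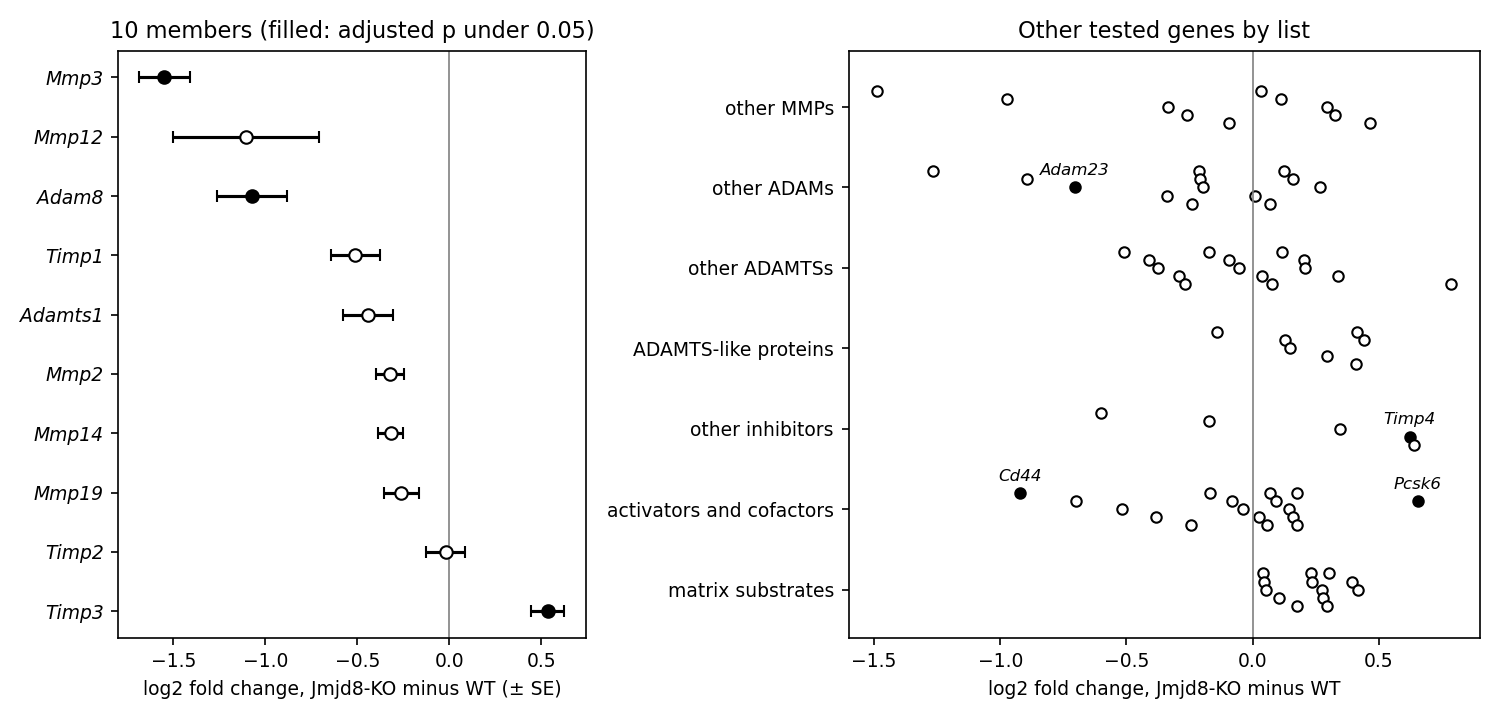
Log2 fold changes, Jmjd8-KO minus WT. The left panel gives the 10 members with their SE and the right panel the other tested genes of each list, 1 point a gene with vertical offsets for legibility; filled points had an adjusted p under 0.05, which are Mmp3, Adam8 and Timp3 on the left and Adam23, Timp4, Cd44 and Pcsk6 on the right.

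Measured per length with the authors' RPKM, the members spanned a wide range of levels, and the order of WT means ran from Timp2 down to Mmp3. Timp2 was at 228 ± 3.71 RPKM in WT, followed by Mmp12 at 97.4 ± 5.99, Mmp2 at 55.5 ± 2.28 and Timp3 at 54.4 ± 4.27. Then came Adam8 at 45.1 ± 4.19 RPKM, Mmp14 at 41.0 ± 1.149, Mmp19 at 32.5 ± 1.54, Timp1 at 27.8 ± 1.90, Adamts1 at 18.2 ± 1.22 and Mmp3 at 9.18 ± 0.687 (SD, n = 3 each). The WT ranges overlapped between Mmp2 and Timp3 and between Adam8 and Mmp14, and no other neighbours in this order overlapped. In Jmjd8-KO the second place was held by Timp3 at 75.3 ± 3.88 RPKM, ahead of Mmp12 at 43.4 ± 22.8, and Adam8, at 20.5 ± 5.47, stood seventh. The 3 TIMPs made up 50.9% of the summed mean RPKM of the members in WT and 63.2% in Jmjd8-KO, shares given without a test. These shares do not show a joint gain of the TIMPs. In Jmjd8-KO the mean of Timp3 was higher, but Timp2 was at 215 RPKM and Timp1 at 18.7 RPKM, both below WT. The mean of every protease was lower in Jmjd8-KO, that of Mmp12 included, which did not pass.

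Calls among the other family members were few, where 2.12% of all tested genes passed and 19.1% had an unadjusted p under 0.05 by edgeR. With 3 mice a group, a missing call does not show that a gene was unchanged. Of 18 other MMPs 10 were tested and none passed by edgeR, with 3 at an unadjusted p under 0.05 and 1 called by DESeq2. Mmp28, epilysin, had the smallest p and the highest CPM of these (50.6 to 59.5 CPM in WT, log2 fold change 0.33, adjusted p = 0.121). Mmp9, gelatinase B, named after its value was seen, was at 6.38 to 6.54 CPM in Jmjd8-KO and 4.16 to 5.24 CPM in WT (log2 fold change 0.46, adjusted p = 0.165), which is the direction opposite to that of Mmp2.

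Of 24 other ADAMs 13 were tested and 1 passed. Adam23, a member with no protease activity that binds integrins and is abundant in brain, fell to 46.8 ± 4.53 CPM from a WT mean of 76.2 ± 7.58 CPM (-0.70, SE 0.107, adjusted p = 0.0317). It was highest in WT replicate 1 (84.7 CPM), above WT replicates 2 and 3 (70.2 and 73.6 CPM), and had -0.63 without that library (adjusted p = 0.0943). The sheddases Adam10 and Adam17, named after their values were seen, had -0.21 (adjusted p = 0.452) and -0.24 (adjusted p = 0.172).

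The secreted ADAMTS proteases showed no call. Of 18 besides Adamts1, 15 were tested and none passed by edgeR or DESeq2, with 4 at an unadjusted p under 0.05 by edgeR. Adamts5, an aggrecanase and the most abundant of them, was at 509 to 628 CPM in Jmjd8-KO and 619 to 762 CPM in WT (log2 fold change -0.27, adjusted p = 0.266). Adamts4, another aggrecanase, had the smallest p (-0.51, adjusted p = 0.138). The 7 ADAMTS-like proteins, which resemble these enzymes but lack the protease domain, had none past the threshold by edgeR, with 3 at an unadjusted p under 0.05 and 1 called by DESeq2. Of the 7, 6 had a positive log2 fold change, led by Adamtsl4 (0.44, adjusted p = 0.0540). Their median of 0.29 was 0.15 without Jmjd8-KO replicate 2, where 2 of them rose, and 0.19 without WT replicate 2, where none passed by edgeR and 1 had an unadjusted p under 0.05.

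Among 17 tested activators and cofactors, 1 rose and 1 fell. Pcsk6, the proprotein convertase PACE4, rose to 129 ± 6.99 CPM from a WT mean of 81.7 ± 9.37 CPM (0.65, SE 0.102, adjusted p = 0.0329). Cd44, the hyaluronan receptor that can hold MMPs at the cell surface, fell to 103 ± 23.1 CPM from 196 ± 14.3 CPM (-0.92, SE 0.166, adjusted p = 0.0443). Pcsk6 and Cd44 were called without Jmjd8-KO replicate 2 (adjusted p = 0.0181 and 0.00702) and with no other mouse left out, their adjusted p being 0.0905 and 0.122 without WT replicate 1. Plau, the urokinase that generates plasmin, lay just outside the threshold (-0.52, SE 0.0972, adjusted p = 0.0502) and was picked after seeing this. None of 13 tested matrix substrates passed by edgeR or DESeq2, with 1 at an unadjusted p under 0.05. All 13 had a positive log2 fold change, with a median of 0.24 that was 0.13 without Jmjd8-KO replicate 2, where 2 of them rose. Col3a1, the most abundant, reached 4182 CPM in Jmjd8-KO replicate 2, while replicates 1 and 3 were at 2460 and 2649 CPM and WT at 2566 to 2739 CPM. Lamb1, a laminin chain with the smallest p, had 0.30 (adjusted p = 0.149).

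Most macrophage markers had the direction of the members that fell. Of 8 macrophage markers 4 fell and none rose, where 1.33% of all tested genes fell. Of the 8, 7 had a negative log2 fold change and 1 a positive one, and Cd68 did not pass (-1.03, adjusted p = 0.204). The 8 markers summed to 1890 to 2274 CPM in Jmjd8-KO and 2753 to 2860 CPM in WT. Lipid-associated macrophages gather around dying adipocytes in obese fat, and 5 of their 6 markers fell and none rose, the sums being 974 to 1195 CPM against 1757 to 2014 CPM. Without Jmjd8-KO replicate 2, 5 and 6 markers fell, in a fit where 697 of 14468 genes fell. With any other mouse left out none of either list passed by edgeR, in fits where 0 to 17 of all genes did, with 4 to 6 of the macrophage and 6 of the lipid-associated markers at an unadjusted p under 0.05. No marker of either list was at 0. Csf1r, the receptor for the macrophage growth factor CSF1, was at 379 to 413 CPM in Jmjd8-KO and 384 to 424 CPM in WT (log2 fold change -0.02, adjusted p = 0.875). In bulk tissue, fewer cells of a type and less RNA per cell cannot be told apart, and the part of macrophage number in the values of Mmp12 and Adam8 was not tested.

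Library by library, Adam8 and Mmp12 each lay close to a macrophage gene found by a search over genes, while other macrophage markers differed from them. Among 13602 genes with a mean of at least 1 CPM, the gene whose centred log2 CPM was nearest to that of Adam8 over the 6 libraries was Gpnmb, a glycoprotein of lipid-laden macrophages. The root mean square difference was 0.0343, where the median over all these genes was 0.624. The next were Plekhn1 (0.0595) and Dpep2 (0.0617). The nearest of so many genes is close by selection, here and for the members below. Timp1 and Timp2, searched after their values were seen, had Cdk20 at 0.0212 (median 0.340) and Gpkow at 0.0141 (median 0.210). For Mmp12, searched after its values were seen, the nearest was Cd68, a lysosomal glycoprotein of macrophages, at 0.0579 (median over all genes 0.868), then Ms4a6d (0.0652) and Fcgr4 (0.123). In Jmjd8-KO replicates 1, 2 and 3 Mmp12 was at 55.9%, 18.9% and 64.8% of its WT mean and Cd68 at 59%, 21.1% and 66.6%. Adam8 was at 50.5%, 33.9% and 58.3% and Gpnmb at 49.2%, 35.7% and 59.6%, while Csf1r stayed between 93.7% and 102%. Other macrophage markers, picked after their values were seen, did not all share the dip of Jmjd8-KO replicate 2. Relative to the mean of Jmjd8-KO replicates 1 and 3, its log2 difference was 0.76 for Trem2 and 0.014 for C1qa. It was -0.083 for Lyz2 and -0.30 for Adgre1, against -1.67 for Mmp12, -1.57 for Cd68 and -0.68 for Adam8.

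Mmp3 had another pattern, with no dip in Jmjd8-KO replicate 2. Its nearest genes were Fosb, an AP-1 subunit, at a root mean square difference of 0.119 (median over all genes 0.797), then S100a8, an alarmin of neutrophils and monocytes (0.187), and Oit3 (0.190). Fosb was at 1.74 to 1.95 CPM in Jmjd8-KO and 5.84 to 6.39 CPM in WT. Of 6 neutrophil markers 3 were tested and S100a8 fell. Of the 3, 2 had a negative log2 fold change and 1 a positive one, and 1 was lower and 1 higher without overlap. With limma-voom and quality weights 1 rose and 1 fell, in a fit where 998 of 14322 genes rose and 1032 fell. The 6 markers summed to 12.1 to 15.6 CPM for the Jmjd8-KO mice, against 22.1 to 25.5 CPM for the WT mice, and Ly6g was at 0. S100a8 alone was at 4.76 to 5.06 CPM for the Jmjd8-KO mice, against 12.0 to 15.1 CPM for the WT mice. Fibroblast and progenitor markers summed to 1698 to 2360 CPM in Jmjd8-KO and 2151 to 2245 CPM in WT. None of 8 was past the threshold by edgeR, with 2 at an unadjusted p under 0.05 and 1 called lower by DESeq2. Of the 8, 4 had a positive and 4 a negative log2 fold change, and 2 were lower without overlap. Without Jmjd8-KO replicate 2, 1 rose and 2 fell, in a fit where 654 of 14468 genes rose and 697 fell.

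The genes nearest to Timp3 included Pdzd2 (0.0313) and Per3, a clock gene (0.0455), where the median over all genes was 0.332. Mesothelial markers moved in the direction of Timp3. Of 6 markers 2 rose and none fell, and they summed to 296 to 326 CPM in Jmjd8-KO and 149 to 205 CPM in WT, with none at 0. Without Jmjd8-KO replicate 2 all 6 rose, in a fit where 654 of 14468 genes did, and with any other mouse left out none passed by edgeR, with 6 at an unadjusted p under 0.05 each time. Adipocyte markers, with none of 6 past the threshold by edgeR, 5 at an unadjusted p under 0.05 and 3 called by DESeq2, did not overlap between the groups in their sums. Of the 6, 4 were higher in Jmjd8-KO without overlap, Fabp4 overlapped, and Lep was lower without overlap (log2 fold change -0.20, adjusted p = 0.216). Over all 14322 tested genes 14% were higher and 15.5% lower without overlap. Of these genes 19.1% had an unadjusted p under 0.05 by edgeR, and 503 rose by DESeq2. The part of mesothelial cells and adipocytes in the value of Timp3 was not tested.

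**Figure D3:**
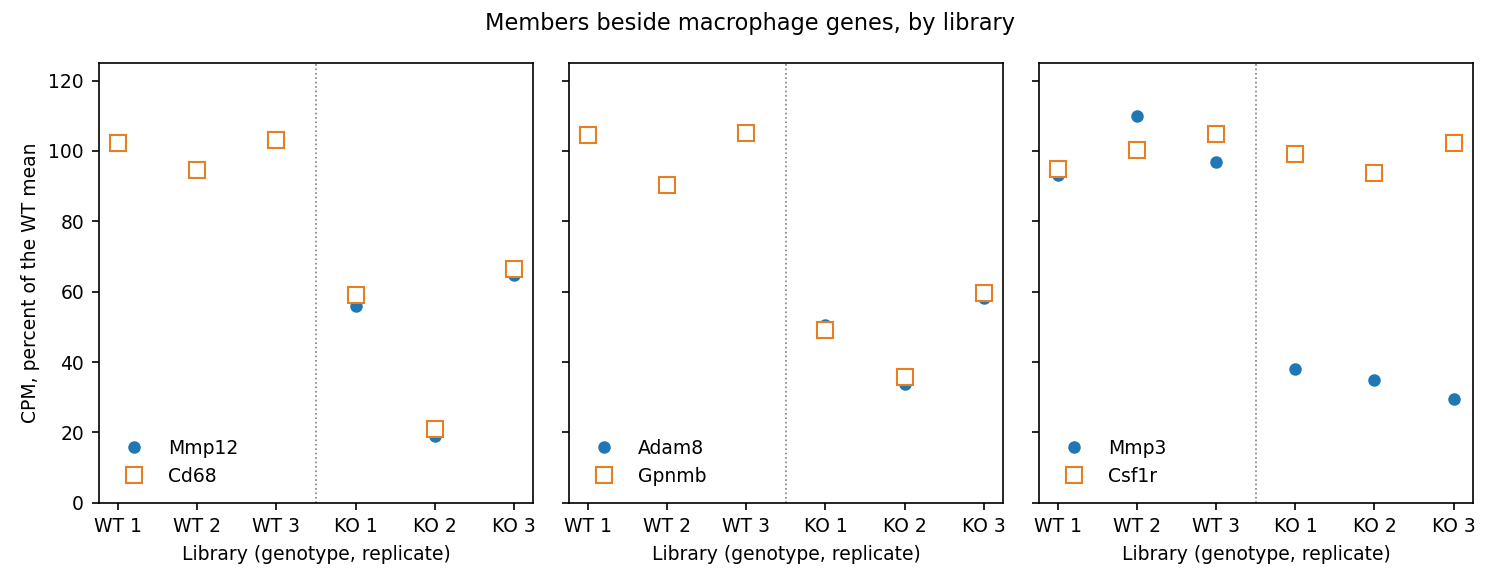
CPM of Mmp12, Adam8 and Mmp3 (filled circles) and of Cd68, Gpnmb and Csf1r (open squares) in each library, as a percent of the gene's WT mean. Mmp12 lies close to Cd68 and Adam8 to Gpnmb in all 6 libraries, with Mmp12 slightly below Cd68 in each Jmjd8-KO library. Mmp12 and Adam8 go down to 18.9% and 33.9% in Jmjd8-KO replicate 2. Mmp3 is at 29.6% to 38% in Jmjd8-KO and Csf1r is near 100% throughout.

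The dip of Mmp12 in Jmjd8-KO replicate 2 was set beside a shift of that library with GC content. Relative to the mean of Jmjd8-KO replicates 1 and 3, genes in the lowest decile of transcript GC content had a median log2 difference of -0.24 in that library and genes in the highest decile 0.31. Mmp12, with 40.3% GC in the lowest decile, had -1.67, where the lowest 5% of genes of that decile began at -1.004. Cd68, with 52.9% GC, had -1.57, Adam8 -0.68, Timp2 -0.33, Timp3 -0.06, Mmp14 0.0048 and Mmp3 0.05. With offsets fitted to GC content in each library, a setting added after seeing the data, Mmp3, Adam8 and Timp3 passed and no other member did, and the value of Mmp12 was -1.01 (adjusted p = 0.174).

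**Figure D4:**
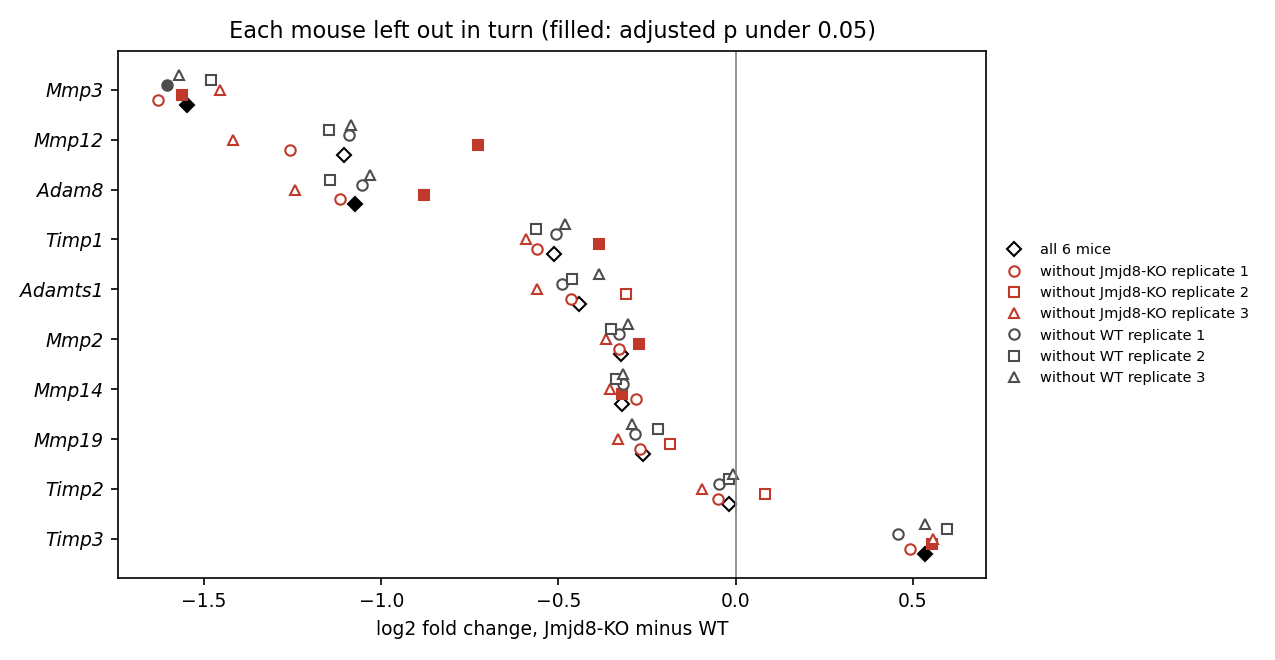
Log2 fold change of each member with all 6 mice (diamond) and with each mouse left out in turn, red for Jmjd8-KO and grey for WT mice left out, with circles, squares and triangles for replicates 1, 2 and 3; filled symbols had an adjusted p under 0.05. Mmp12 moves from -1.10 to -0.73 without Jmjd8-KO replicate 2, Timp2 crosses 0 there, and the other members keep their sign.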

How the data were processed

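RNA-seq of 6 mice was analysed from 1 table of 24539 genes. The submitters' processing notes name STAR, featureCounts and the build mm10, with no versions, annotation or strand setting. Per the file headers, the table holds raw counts, not normalized, and RPKM values made by the authors. The deposited counts were tested and the deposited RPKM used only for levels per length. Labels' replicate numbers name separate mice, per the series' design text. Total counts were 17598696 to 20598473 per library, with a median of 42 to 78 counts per listed gene.

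Genes were kept by filterByExpr (minimum count 10), scaled by TMM and tested with edgeR 4.0.16 (glmQLFit, glmQLFTest, R 4.3.3), with genotype as the only term and Benjamini-Hochberg adjustment over 14322 genes. SE was taken as |log2 fold change| divided by √F. CPM are TMM-scaled. Likeness used log2 CPM with a prior count of 2. Alternatives used DESeq2 1.42.0, limma 3.58.1, other scaling, filters, a replicate block, left-out mice and GC offsets (97.9% of genes had a GC value).

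Members and lists were chosen with earlier results of these data known. All members are named. From each other list come the genes that passed (at most 6) or, with none, those with the smallest p and highest mean, and from each cell type list the 3 highest and those at 0. The text takes examples from these and says where others were picked. 1 gene that the likeness rule names is not reported here. Positions are from GENCODE M21 (GRCm38, the assembly of mm10), where 97.3% of symbols matched.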

Additional observations from a re-analysis of the deposited data

How the results depend on the processing

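All 10 members except Timp2 kept their sign in all 14 alternatives. Timp2 had a log2 fold change of 0.065 with limma-voom and quality weights, -0.097 to 0.083 with 1 mouse left out (positive without Jmjd8-KO replicate 2), 0.064 without that mouse and WT replicate 1 together, and 0.0049 with GC offsets, all short of the threshold. The cause was not tested. Of all genes, 304 passed, against 1039 with DESeq2, 2030 with limma-voom and quality weights, 156 with no filter on low counts, 5 with the replicate number as a block and 2833 without WT replicate 1 and Jmjd8-KO replicate 2 together. It was 0 to 1351 with 1 mouse left out, the 0 being that without WT replicate 3 (edgeR, 2119 genes with unadjusted p under 0.05). Of the members, 2 fell, against 5 with DESeq2, 7 with limma-voom, 1 (Mmp3) with no filter and with the filter at a mean of 1 CPM, 8 without both mice and 0 to 6 with 1 mouse left out. The number of members that rose was 1, 0 with no filter and 0 to 1 with 1 mouse left out.

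With the replicate block 0 members fell and 0 rose by edgeR, the adjusted p being 0.0615 for Mmp3, 0.0654 for Adam8 and 0.132 for Timp3, in a fit with 2245 genes at an unadjusted p under 0.05. Deviations from the group means of same-numbered mice correlated across genes at -0.018, -0.029 and 0.0082, all near 0. With 3 mice a group these values do not settle whether the numbers pair the mice, and a shared litter, cage or batch was not tested. Mmp3 stands on 89 to 379 counts, so counting error adds to its spread, and the other members have at least 299 counts in every library.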
